A study of Homo sapiens and Mus musculus with 20 samples.

Results

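The regions of open chromatin that gained or lost peaks when SW480 cells were given propionate were followed across the genome. SW480 is an established human colorectal adenocarcinoma line. The comparison used 6 of the 20 ATAC-seq libraries of a study of short-chain fatty acids and histone acylation, namely 3 libraries of SW480 cells given 10 mM sodium propionate (NaPr) and 3 of untreated SW480 cells grown in the same experiment. Per the labels, treatment lasted 12 to 16 h and 50000 viable cells entered each Omni-ATAC reaction, a form of ATAC-seq, which reads open DNA through the adapters that a transposase places in it. Both groups were the same line, without any genetic change named in the labels, and the labels do not say whether the 3 libraries of a group came from separate cultures, so that p-values measure the spread between these libraries, which may be technical. The members were all regions made by merging the peak intervals of the 6 lists where they overlapped. This gave 213541 regions, of which the 129351 with a peak in at least 2 libraries were tested. The strength of a region in a library is its percentile rank among the tested regions, by its most significant peak (highest −log10 p), with 100 for the strongest region and 0 for a region without a peak. Changes are differences of mean rank, treated minus untreated, in percentile points with their standard error (SE), tested with limma and adjusted by the Benjamini-Hochberg method over all tested regions; regions with an adjusted p below 0.05 are called higher or lower. Ranks are relative within a library, so that a gain or loss shared by all peaks cannot be seen.

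Propionate is made from dietary fibre by gut bacteria. It inhibits class I and II histone deacetylases, and as propionyl-CoA it is also a donor for propionylation of histone lysines. Open chromatin falls mainly into promoters, of which those rich in CpG dinucleotides are open in nearly all cell types, and into distal elements such as enhancers, which differ more between cell types and often hold sites for AP-1, the dimer of FOS and JUN proteins. NF-Y is a trimeric factor that binds the CCAAT box.

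Read totals were not used here. The genome-wide background recovered from the lists, which is proportional to depth, ran from 0.936 to 2.35 tags in untreated and from 0.938 to 1.77 tags in treated libraries, and the lists held 112145 to 144398 intervals. Start regions of 10 of 10 epithelial marker genes had a peak in all 6 libraries, against 4 of 8 for fibroblast, 2 of 8 for leukocyte and 1 of 6 for endothelial markers.

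The sequences below are examples of the regions described, each 200 bp around the highest summit of a region. In the regions at ABRAXAS1 and ZSWIM6, which had peaks in all treated and no untreated libraries, capitals mark the AP-1 consensus (TGACTCA or its reverse complement TGAGTCA). These 2 regions were picked from the largest rises that held this consensus, so its presence follows from the choice. Of the 10 largest rises only 1 held it. In the regions at PRKCD, CD63 and NUAK2, which lost their peaks, capitals mark the CG dinucleotides.
ABRAXAS1 region, GRCh38 chr4:83516065-83516264, plus strand: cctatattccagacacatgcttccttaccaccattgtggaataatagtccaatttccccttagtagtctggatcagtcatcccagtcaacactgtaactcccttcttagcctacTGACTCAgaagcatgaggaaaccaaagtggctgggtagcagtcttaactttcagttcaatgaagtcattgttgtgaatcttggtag
ZSWIM6 region, GRCh38 chr5:61328203-61328402, plus strand: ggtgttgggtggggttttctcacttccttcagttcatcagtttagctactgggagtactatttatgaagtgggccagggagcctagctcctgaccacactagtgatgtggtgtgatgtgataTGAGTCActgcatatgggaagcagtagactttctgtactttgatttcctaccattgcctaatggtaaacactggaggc
PRKCD region, GRCh38 chr3:53161893-53162092, plus strand: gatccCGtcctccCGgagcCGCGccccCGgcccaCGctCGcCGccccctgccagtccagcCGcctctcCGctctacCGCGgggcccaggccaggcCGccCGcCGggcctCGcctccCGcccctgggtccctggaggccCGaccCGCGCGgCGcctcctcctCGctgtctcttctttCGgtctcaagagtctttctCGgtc
CD63 region, GRCh38 chr12:55728486-55728685, plus strand: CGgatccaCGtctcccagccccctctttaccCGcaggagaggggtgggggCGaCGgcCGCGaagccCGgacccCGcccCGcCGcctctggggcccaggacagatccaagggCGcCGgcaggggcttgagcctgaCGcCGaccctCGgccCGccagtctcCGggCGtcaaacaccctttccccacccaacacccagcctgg
NUAK2 region, GRCh38 chr1:205317606-205317805, plus strand: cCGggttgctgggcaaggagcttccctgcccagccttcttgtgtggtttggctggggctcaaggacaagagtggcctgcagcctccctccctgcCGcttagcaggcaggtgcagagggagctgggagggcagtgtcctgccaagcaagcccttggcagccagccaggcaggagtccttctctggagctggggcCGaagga

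The windows at the start regions of PRKCD and CD63 held 25 and 19 CG dinucleotides, whereas the intronic window of NUAK2 held 3. Over the called regions the median was 2 CG dinucleotides in the 200-bp window of higher regions and 7 in that of lower regions, beside 3 over all tested regions.

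After NaPr, 5758 regions ranked higher and 5051 lower, which is 4.45% and 3.90% of the regions tested, and 32539 regions had an unadjusted p below 0.05. Higher regions were narrower than lower ones and lay farther from genes, with a median width of 627 bp, a GC content of 50.5% around the summit and a distance of 16868 bp to the nearest start of a protein-coding gene. Lower regions were wider (839 bp), richer in GC (60.5%) and closer to starts (3590 bp). Over all tested regions the medians were 556 bp, 53.5% and 13205 bp. Most calls were shifts of peaks present in every library: 3393 of the higher regions (58.9%) and 3529 of the lower (69.9%) had a peak in all 6. Regions that switched, with a peak in every library of 1 group and none of the other, made up 1912 of the higher (33.2%) and 1125 of the lower calls (22.3%). The median change was 20.7 percentile points in higher and 14.7 in lower regions. At all 5758 higher and 5051 lower regions the treated and untreated ranks did not overlap. Where this is given below for a called region, it adds nothing to the call. Over all 129351 tested regions it held at 36291.

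The calls needed all 3 treated libraries. Without treated replicate 1, 2 or 3, limma called 0 regions, with 30004, 30442 and 30868 regions below an unadjusted p of 0.05, while all 10809 called regions kept their direction and an unadjusted p below 0.05 in each of these fits. Without untreated replicate 1, 2 or 3, 3227, 570 and 372 of the calls remained. Estimated tags at the summits of regions with a peak in every library gave another split between higher and lower. Relative to each library's background 92.4% of its calls were higher, and relative to each library's median 37.9%, beside 53.3% for the ranks.

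The 10 largest rises all had peaks in the 3 treated libraries and in none of the untreated, and 2 of them lay within 1 kb of a start of a protein-coding gene. An intronic region of ABRAXAS1 (chr4:83515892-83516680), a scaffold of the BRCA1-A complex, had no peak in untreated libraries and ranked 78.6, 72.5 and 76.5 in treated libraries, with peaks up to 16.6 times above local background (change 75.9, SE 8.82, limma adjusted p = 0.00482). Among the 10, only this region held the AP-1 consensus. A region 1615 bp from the start of RAE1 (chr20:57348991-57349608), an mRNA export factor, ranked 84.7, 75.2 and 73.2 after NaPr (77.7, SE 8.90, adjusted p = 0.00449). A start region of PARP16 (chr15:65300428-65300880), an ADP-ribosyltransferase of the endoplasmic reticulum, went from 0 to 76.2, 72.1 and 76.2. The other named genes at these regions were SAT1, the rate-limiting enzyme of polyamine breakdown, COL26A1, a collagen, TMPRSS9 and PRSS3, both serine proteases, FOXL3, a forkhead factor, STX16, a syntaxin of vesicle fusion, and PIANP, a neural membrane protein whose region also lay by the U6 pseudogene RNU6-781P. The changes of these 10 regions ran from 74.8 to 80.05 points. They were picked for their change and passed the filter through treated libraries alone, so the groups could not overlap.

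**Figure D1:**
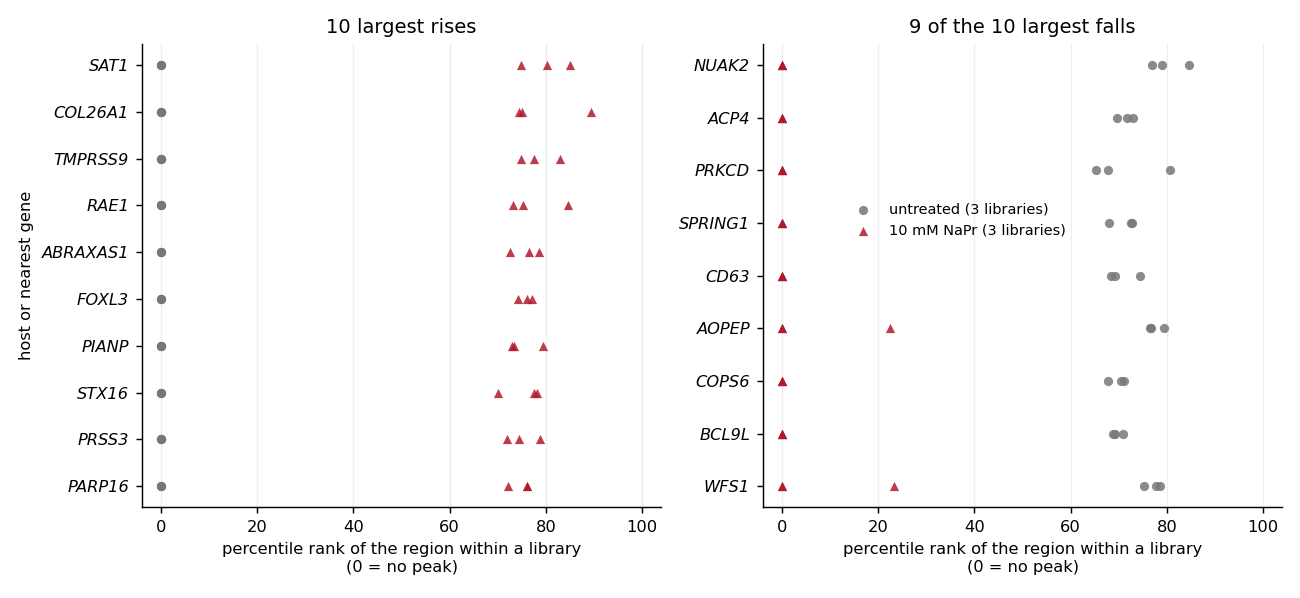
Percentile rank in each of the 6 libraries for the 10 largest rises and 9 of the 10 largest falls, labelled by host or nearest gene, with 0 for no peak. All 10 rises sit at 0 in untreated libraries and the 9 falls sit at or below 23.2 in treated libraries.

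Of the 10 largest falls, 8 had no peak in any treated library and 5 lay within 1 kb of a protein-coding start. At COPS6 (chr7:100091028-100092151), a subunit of the COP9 signalosome, ranks were 67.6, 70.5 and 71.0 without treatment and 0 in each treated library (change -69.7, SE 9.19, limma adjusted p = 0.00651). At BCL9L (chr11:118911120-118911343), a coactivator of β-catenin, they were 70.9, 69.2 and 68.7, and 0 after NaPr. An intronic region of WFS1 (chr4:6271370-6272104), an endoplasmic reticulum membrane protein, ranked 77.8, 78.5 and 75.2 and then 0, 0 and 23.2. These groups did not overlap. An intronic region of AOPEP, an aminopeptidase, went from 79.4, 76.5 and 76.8 to 0, 22.4 and 0. Its treated libraries all lay below the untreated. NUAK2, an AMPK-related kinase, ACP4, an acid phosphatase, PRKCD, protein kinase C delta, CD63, a tetraspanin of late endosomes, and the start of an lncRNA gene 56966 bp from SPRING1 were also among the 10. Changes ran from 69.4 to 80.1 points in size, with adjusted p between 0.00376 and 0.00703.

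Of 16706 tested regions within 1 kb of the canonical start of a protein-coding gene, 242 ranked higher and 1485 lower, which is 1.45% and 8.89%. The 20 promoter regions with the largest changes switched between presence and absence of a peak, and 20 of the 20 had a stronger tested region within 1 kb of the same start. The region at ZNF274, a zinc finger repressor, went from 0 to 72.0, 76.6 and 64.9 (71.2, SE 9.33, limma adjusted p = 0.00643), beside a region of the same promoter that ranked 92.3, 92.3 and 92.1 without and 93.6, 95.5 and 93.7 with NaPr. The region at PCCA, the alpha subunit of propionyl-CoA carboxylase that begins the breakdown of propionyl-CoA, went from 66.0, 63.8 and 58.1 to 0 (-62.6, SE 9.68, adjusted p = 0.00997), while its main promoter region ranked 99.4, 99.3 and 99.0 without and 97.6, 98.8 and 98.8 with NaPr and was not called. At CD63 the lost region lay beside one with ranks of 96.9, 97.0 and 95.9 untreated and 96.2, 97.3 and 97.0 treated. The stronger regions of these 3 promoters thus kept their peaks in every library. At PRKCD the neighbouring region also ranked lower, by -6.01, from 90.4, 92.7 and 92.5 to 83.6, 87.9 and 86.1. Other promoter regions among the 20 were gained at TWF2, an actin-binding protein, PPP1R12C, a myosin phosphatase subunit, NLRX1, a mitochondrial NOD-like receptor, and H2AJ, a histone variant, and lost at PXN, the focal adhesion adaptor paxillin, METTL21A, a protein lysine methyltransferase, and SPRY4, an inhibitor of MAPK signalling.

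The split of promoter regions into the strongest of each start and the others was chosen after the values were seen. The 13590 strongest regions had a median width of 1249 bp, and 159 ranked higher (1.17%) and 1225 lower (9.01%). Only 31 were gained and 40 lost. Of the 3116 other regions, with a median width of 275 bp, 83 ranked higher and 260 lower (8.34%), and 101 were gained and 180 lost. Among 225 called promoter regions with peaks in 1 group only, 195 (86.7%) lay beside a stronger region.

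By location, the balance of higher and lower calls changed with distance from genes. Of 26179 regions within 1 kb of any start of a protein-coding gene, 2.34% ranked higher and 7.77% lower, and at starts of lncRNA genes 4.52% and 5.64%. In introns the shares were 4.89% and 3.04%, in intergenic regions 10 to 100 kb from a start 5.35% and 2.56%, and beyond 100 kb 4.62% and 1.78%. The median change was -1.23 points at protein-coding starts, 0.72 in introns and 2.49 beyond 100 kb, beside 0.04 over all regions, and each location stood on the same side of the all-region median in 18 of 18 alternative settings. As a share of all its peaks, exonic regions made up 2.58%, 2.53% and 2.39% in untreated and between 2.01% and 2.12% in treated libraries, ranges that did not overlap (two-sided exact permutation p = 0.1, the smallest possible with 3 against 3, adjusted p = 0.32). Starts made up 21.6%, 22.4% and 23.6% of peaks in untreated and 20.6%, 21.8% and 22.8% in treated libraries, which overlapped (exact permutation p = 0.5).

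**Figure D2:**
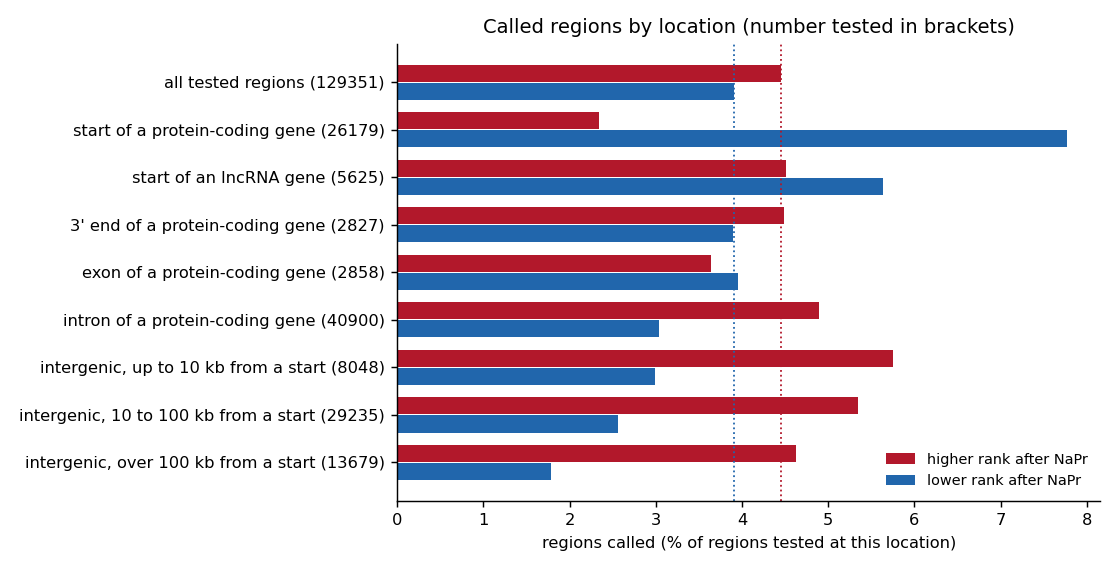
Percent of tested regions called higher and lower after NaPr, by location on the gene annotation, with dotted lines for all tested regions (4.45% and 3.90%). Starts of protein-coding genes show 7.77% lower against 2.34% higher, and regions over 100 kb from a start 1.78% lower against 4.62% higher.

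CpG content separated the starts further. Of 12931 start regions with a GC content of at least 55% and a CpG ratio of at least 0.6, 75 ranked higher (0.58%) and 1380 lower (10.7%). Their median rank was 90.2, 91.0 and 90.5 in untreated and 88.8, 89.1 and 88.6 in treated libraries, so that the groups did not overlap but differed by little. The 13248 other start regions were called higher in 538 cases (4.06%) and lower in 654 (4.94%). The share called varied with the strength of a region, so the CpG-rich starts were compared with all regions in the same band of mean rank, bands chosen after the values were seen. From rank 80 to 90, 15.9% of the CpG-rich starts ranked lower and 0.81% higher, beside 9.52% and 9.49% of all regions. In the band from 60 to 80 it was 14.6% and 0.19% beside 5.58% and 5.30%, and in the top band from 90 to 100 it was 6.98% and 0.65% beside 5.82% and 5.67%. The scarcity of higher calls was thus present in each of these bands, and the excess of lower calls was smallest among the strongest peaks.

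Away from starts, regions with the AP-1 consensus in the 200-bp window were called higher more often than those without it. The consensus was present in 17.0% of 103172 tested regions, in 29.3% of the higher and in 8.78% of the lower regions. Of the 17548 regions with it, 8.6% ranked higher and 1.51% lower, beside 4.25% and 3.21% of those without. Among regions with 1 and 2 copies 8.28% and 11.4% ranked higher, and with at least 3 copies 24 of 100. The median rank of AP-1 regions was 47.6, 47.3 and 48.2 in untreated and 54.7, 55.3 and 54.3 in treated libraries. Peaks were present at 73.8%, 67.6% and 71.5% of them in untreated and 87.4%, 86.3% and 85.4% in treated libraries, so neither range overlapped. In the band of mean rank from 60 to 80, 9.68% of AP-1 regions ranked higher, beside 5.08% of regions without the consensus, and from 80 to 90 it was 17.4% beside 12.1%. A match is a description and not evidence of a bound factor.

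**Figure D3:**
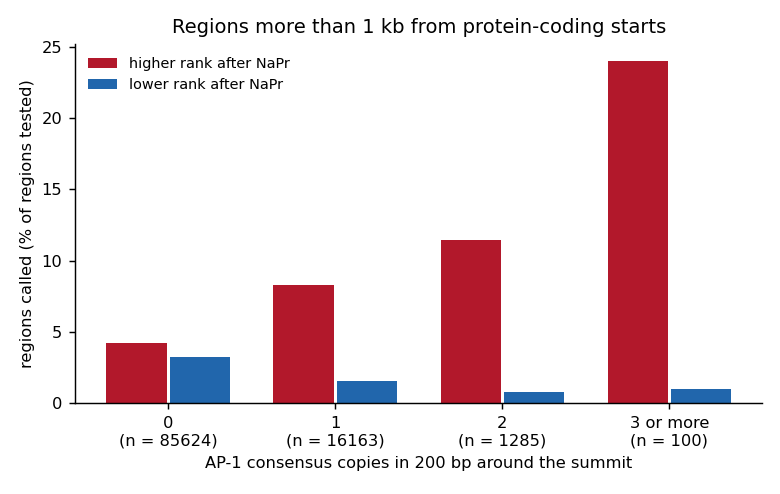
Percent of regions away from starts called higher and lower, by the number of AP-1 consensus copies in the 200-bp window. The higher share goes from 4.25% without a copy to 24% with at least 3, and the lower share from 3.21% to 1.00%.

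Other consensus strings divided between the directions. The NF-Y string (CCAAT, then C or G, then A or G, sought on both strands, as were all strings) was present in 7.80% of regions away from starts, in 13.1% of the higher and 5.70% of the lower, and 8.37% of the regions with it ranked higher beside 4.70% of those without. CTCF, the insulator factor, was matched in 4.13% of all, 4.84% of higher and 1.56% of lower regions. Lower regions more often held the strings of TCF, the WNT pathway's DNA-binding factor (9.74% beside 5.74% of all), RUNX (8.68% beside 4.81%), KLF (18.5% beside 11.9%) and SP1 (3.84% beside 1.4%). Regions with AP-1, NF-Y, CTCF and SP1 strings stood on the same side of the all-region median in 18 of 18 settings, those with KLF in 17, TCF in 16 and RUNX in 14. That median includes start regions. Regions away from starts without the AP-1 string also lay above it (0.12 beside 0.04 points). A place above it thus does not set the regions with a string apart from other regions away from starts. At starts, SP1, a GC-box factor, was matched in 12.7% of all, 4.73% of higher and 18.1% of lower regions, and the AP-1 string in 7.22%, 20.2% and 4.42%.

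Of all 20-bp words held by at least 15 lower regions, CCGCCGCCGCCGCCGCCGCC had the highest share of lower calls among the regions with it. It was picked by these values, so that no test was made on it. With up to 2 mismatches it was matched in 470 regions, 88.3% within 1 kb of a start, and 71 of them ranked lower (15.1%) and 2 higher. Repeat annotation was not used here, and how reads from repeated sequence were placed is not given in the sources used here.

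Genes of small nuclear RNAs, most of them RNA parts of the spliceosome, were also examined as a group, chosen after the values were seen. Pseudogenes left out, 89 regions lay at 52 such genes, of which 19 ranked higher (21.4%) and 0 lower. For U1, which recognises the 5′ splice site, it was 14 of 43 regions (32.6%), for U5 2 of 10, for U6 1 of 18 (5.56%, near the 4.45% of all regions), and for U2, U4 and U7, the last of which acts in histone mRNA processing, 0 of 4, 4 and 3. The U1-type gene RNVU1-34 had ranks of 68.6, 77.7 and 75.2 without and 98.5, 96.7 and 95.3 with NaPr (change 22.98, SE 2.18, limma adjusted p = 0.00307). RNU5D-1 went from 78.2, 79.8 and 80.9 to 92.0, 92.3 and 91.5 (12.3, SE 1.24, adjusted p = 0.0035), and RNU1-1 from 90.5, 91.8 and 90.3 to 95.0, 95.9 and 94.0 (4.13, SE 0.83, adjusted p = 0.0215). At each of the 3 genes all treated libraries ranked above all untreated. RNU12, of the minor spliceosome, went from 88.2, 92.9 and 92.2 to 97.8, 96.8 and 95.9. At RNU1-3 the ranks were 93.0, 92.0 and 93.9 without and 93.5, 92.3 and 92.8 with NaPr and overlapped. In the top band of mean rank 11 of 17 U1 regions ranked higher (64.7%), beside 5.67% of all regions. U1 genes are near-identical copies, so which copy a peak belongs to is uncertain, and ranked by fold enrichment the median of the small nuclear RNA group moved to the other side of the all-region median, while that of U1 did not.

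**Figure D4:**
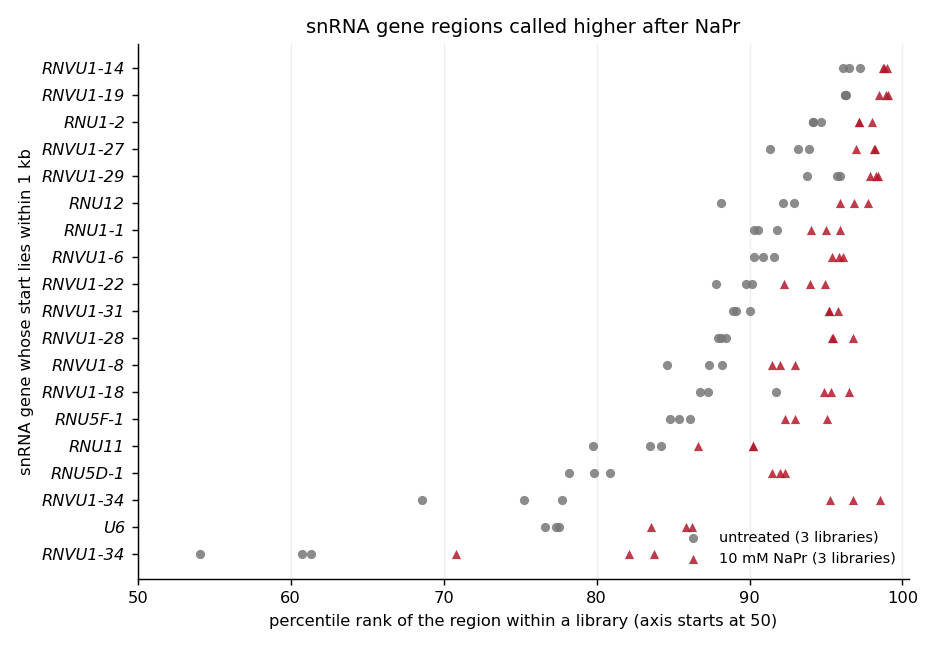
Percentile rank (axis from 50 to 100) in the untreated and treated libraries for the regions at small nuclear RNA genes that ranked higher. Each point is a library, and at the stronger of 2 regions of RNVU1-34 the treated points (95.3 to 98.5) lie above the untreated points (68.6 to 77.7).

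Of the 80607 tested regions within 5 kb of a protein-coding gene, 4.07% ranked higher and 4.69% lower. At genes of AP-1 subunits themselves, calls went both ways, with 8 higher and 8 lower among 80 such regions. FOSL1, which encodes FRA1, had 4 of 8 regions higher and none lower: its 3′ end went from 0 to 49.2, 63.4 and 59.5, an intronic region from 35.0, 42.5 and 53.9 to 71.4, 61.9 and 74.3, and an intergenic region from 90.8, 92.5 and 92.4 to 98.1, 97.5 and 98.4 (6.11, SE 0.72, limma adjusted p = 0.0049). The 3′ end of JUN (chr1:58779715-58780598) went from 55.5, 50.8 and 37.2 to 86.4, 84.8 and 90.7 (39.5, SE 4.94, adjusted p = 0.00569). None of these ranges overlapped. FOS had calls in both directions. A region 883 bp from its start ranked lower, from 91.7, 89.0 and 93.3 to 86.7, 87.6 and 85.0 (-4.92, SE 1.31, adjusted p = 0.048), and its 3′ end higher, from 54.0, 63.8 and 60.9 to 80.5, 80.9 and 79.1 (20.6, SE 3.46, adjusted p = 0.013). FOSL2, encoding FRA2, lost a promoter region (45.1, 32.6 and 46.7, then 0) and gained an intronic one (0, then 58.7, 51.2 and 57.8).

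Among 73 regions near CDK inhibitors and D cyclins, 2 ranked higher (2.74%) and 12 lower (16.4%), beside 4.07% and 4.69% of all regions near genes, with a median change of -3.12 points beside -0.42. Among 202 regions near mitotic and S-phase genes, 8 ranked higher and 14 lower (6.93%), and 6 of their 69 promoter regions were lower (8.70%), near the 8.89% of all promoters. CCND1, which encodes cyclin D1, had 4 of 9 regions lower, among them one that went from 63.6, 65.3 and 66.9 to 23.3, 0 and 0 and one from 53.6, 51.7 and 49.9 to 0. An intronic region of CDKN1A, which encodes the CDK inhibitor p21, went from 63.6, 70.1 and 72.4 to 0 (-68.7, SE 9.38, limma adjusted p = 0.00706). A promoter region of CDKN1B, encoding p27, went from 57.8, 53.1 and 51.4 to 0, 31.5 and 0. The treated libraries lay below the untreated at each of these regions.

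WNT targets and stem cell genes had 9 higher (3.09%) and 29 lower (9.97%) calls among 291 regions, beside 4.07% and 4.69% of all regions near genes. The start region of CTNNB1, which encodes β-catenin, went from 98.0, 98.3 and 97.6 to 93.3, 92.2 and 94.7 (-4.59, SE 0.74, limma adjusted p = 0.0116). LEF1, a partner of β-catenin on DNA, went from 80.4, 86.8 and 87.9 to 77.7, 69.6 and 73.7. A start region of AXIN2, a feedback inhibitor and target of the pathway, lost its peak from ranks of 71.8, 68.4 and 59.8 (-66.7, adjusted p = 0.00809). It lay near a start other than the canonical one. The stem cell receptor LGR5 moved the other way at an intronic region, from 74.0, 67.0 and 69.7 to 83.7, 81.0 and 83.3 (12.4). SOX9, a crypt transcription factor, also rose at its start, from 86.5, 86.2 and 84.7 to 92.1, 90.4 and 92.9 (6.0, SE 1.10, adjusted p = 0.016). HES1, the Notch target that represses secretory fate, had 4 of 8 regions lower, one of them from 69.5, 52.7 and 58.7 to 0.

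Across 57 gene lists, 49 had more lower than higher calls among the promoter regions of their members, where the median change over all promoters was -1.16 points. The lists were chosen with results of these data known, and no list was tested as a set. Among the 46 lists with at least 20 promoter regions, 4 that include cell contact and cytoskeletal genes had the highest lower shares. Lists share members, so that lower regions such as those of CDH1, CLDN7, EPCAM and ITGA5 count in more than 1 list. In smaller lists, the epithelial markers had 5 of 14 lower (35.7%) and short-chain fatty acid receptors and transporters 2 of 9 (22.2%). Tight and adherens junction genes had 10 of 38 promoter regions lower (26.3%) and 0 higher, with a median of -2.61, whereas over all 340 regions near them 18 ranked higher and 16 lower. Focal adhesion and actin genes had 13 of 57 lower (22.8%) and 0 higher, YAP/TEAD genes 7 of 32 (21.9%) and 0, and genes of epithelial to mesenchymal transition 6 of 26 (23.1%) and 1. Each of these 4 medians stayed on its side of the all-region median in 18 of 18 settings. All promoters together also lay below that median (-1.16 beside 0.04 points), so this does not set the 4 lists apart from other promoters.

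Among junction and epithelial genes, the start region of EPCAM, an epithelial adhesion molecule, went from 97.8, 98.1 and 97.4 to 95.1, 95.0 and 92.5 (-3.61, SE 0.80, limma adjusted p = 0.028), while a region 4639 bp from its start went from 0 to 58.9, 50.8 and 54.5. CDH1, encoding E-cadherin, had a weaker start region that went from 76.2, 77.8 and 80.4 to 55.6, 64.7 and 61.8 (-17.5, SE 3.52, adjusted p = 0.0214). CLDN7, a claudin, went from 89.2, 83.7 and 85.9 to 74.4, 79.2 and 78.4, and TJP3, a tight junction scaffold, from 85.6, 88.0 and 82.1 to 75.3, 76.8 and 69.98. All 4 had treated ranks below every untreated rank. The direction was not shared by all claudins, since a start region of CLDN4 rose from 92.1, 92.4 and 92.1 to 97.6, 97.0 and 97.9 (5.30, adjusted p = 0.00509). That region lay near a start other than the canonical one, so it was not counted among the promoter regions. VIM, the mesenchymal intermediate filament vimentin, was lower as well (90.6, 90.3 and 89.3, then 86.9, 85.6 and 83.3), and LOX, which crosslinks collagen, was the 1 higher promoter of the transition list (92.3, 90.7 and 92.3, then 95.9, 96.7 and 97.6). KRT18, a keratin of simple epithelia, went from 85.8, 86.7 and 85.8 to 62.3, 72.8 and 75.7.

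In the focal adhesion list, ITGA5, the fibronectin receptor's alpha chain, had start ranks of 86.7, 89.0 and 88.6 without and 72.9, 70.6 and 76.9 with NaPr (-14.6, SE 1.99, limma adjusted p = 0.00703). ITGA3, a laminin receptor chain, went from 92.0, 91.6 and 88.6 to 81.9, 81.5 and 79.5 (-9.80, SE 1.39, adjusted p = 0.00773), and ITGB4, of hemidesmosomes, from 98.2, 97.4 and 98.0 to 93.4, 93.1 and 95.0. These integrin promoters did not overlap between groups. A second start region of ITGB4 ranked higher, from 44.3, 49.8 and 46.4 to 75.9, 79.0 and 69.2. It lay near a start other than the canonical one and was not counted among the promoter regions. Among YAP/TEAD genes, TEAD4, a DNA-binding partner of YAP, went from 92.3, 94.2 and 92.7 to 85.9, 87.3 and 83.1 (-7.60, SE 1.25, adjusted p = 0.0121), WWTR1, which encodes the coactivator TAZ, from 98.3, 98.5 and 97.9 to 94.0, 96.5 and 95.2, and STK4, a kinase upstream of them, from 98.0, 98.3 and 97.7 to 94.8, 93.4 and 93.3. Members of opposite role in the pathway were thus lower together.

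Of the BCL2 family, the regulators of mitochondrial apoptosis, 6 of 31 promoter regions ranked lower (19.4%) and 0 higher, beside 8.89% and 1.45% of all promoters, with a median of -6.55. They belonged to both sides of the family. BCL2 itself, which blocks apoptosis, went from 76.2, 73.3 and 76.0 to 61.9, 64.7 and 54.4 (-14.8, SE 3.84, limma adjusted p = 0.045). BID and BBC3, which promote it, went from 87.1, 85.9 and 81.7 to 69.98, 75.6 and 74.9 and from 78.3, 85.8 and 81.1 to 74.6, 60.8 and 68.8. The anti-apoptotic BCL2L1 had 5 regions higher and 1 lower of 24, with the higher ones in introns or 3462 bp from a start. One (chr20:31727451-31727981) went from 23.7, 0 and 0 to 86.8, 74.3 and 73.7 (70.4, SE 9.78, adjusted p = 0.00727), and an intronic one from 75.8, 84.6 and 81.0 to 96.8, 90.6 and 93.2.

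Transcription factor and signalling genes were called in both directions. Among intestinal transcription factors 6 of 33 promoter regions ranked lower (18.2%, beside 8.89% of all promoters) and 2 higher, the lower ones including GATA6, an endoderm factor (82.5, 86.1 and 83.8, then 77.3, 75.05 and 78.0). In the NF-kB list 5 of 31 were lower and 2 higher. NFKB1, encoding the p50 subunit, went from 93.4, 90.3 and 91.9 to 85.8, 85.8 and 84.9, whereas the cytokine gene IL6 rose from 81.4, 82.6 and 80.7 to 87.6, 88.1 and 87.2 (6.07, SE 1.27, limma adjusted p = 0.0242). EGFR, the epidermal growth factor receptor, went from 93.5, 96.5 and 96.9 to 89.9, 91.1 and 88.5, and SMAD3, of TGF-beta signalling, from 82.5, 88.5 and 87.9 to 73.6, 76.0 and 78.5. Both were lower in every treated library than in any untreated one. In the list of EGFR ligands and MAPK feedback 4 of 45 promoter regions were lower (8.89%), the share of all promoters. For the TGF-beta and BMP list it was 5 of 42 (11.9%), with 1 higher.

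Among enzymes and readers of histone acylation, the start of BRD9, a reader of acylated lysines, rose from 93.1, 95.0 and 93.8 to 96.6, 96.4 and 97.9. Of 23 promoter regions of deacetylase genes only 1 was called, that of SIRT7, a sirtuin (90.1, 88.8 and 89.9, then 78.4, 82.8 and 83.6). Away from promoters the class II deacetylases had more: HDAC4 had 5 of 45 regions lower, one from 85.2, 83.3 and 82.8 to 57.0, 63.8 and 60.2, and HDAC7 had 5 lower and 1 higher of 21. Over all 145 regions near deacetylase genes, 5 ranked higher (3.45%) and 16 lower (11.03%), beside 4.07% and 4.69% of all regions near genes. In the list of propionate and butyrate metabolism, 3 of 38 promoter regions were lower (7.89%) and 0 higher. One belonged to ACADS, the short-chain acyl-CoA dehydrogenase, which went from 91.1, 92.5 and 91.2 to 85.3, 82.0 and 86.2 (-7.10, SE 1.29, adjusted p = 0.0158). The 7.89% was near the 8.89% of all promoters. Counted by peaks, called or not, 4 of the 38 regions were lost (10.5%), beside 1.32% of all promoter regions.

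Several housekeeping lists had few lower calls, beside 8.89% of all promoter regions. Aminoacyl-tRNA synthetases had 0 lower of 40 promoter regions, proteasome genes 1 of 50 (2.00%), oxidative phosphorylation genes 2 of 89 (2.25%), histone genes 2 of 72 (2.78%) and cytoplasmic ribosomal protein genes 3 of 101 (2.97%). Other such lists lay nearer the general share. Splicing factors had 4 of 89 lower (4.49%), mitochondrial ribosomal protein genes 6 of 93 (6.45%) and heat shock and chaperonin genes 6 of 84 (7.14%). Zinc finger (ZNF) genes were unlike the other large lists in that higher and lower promoters were equally frequent, with 25 and 26 of 485. ZNF226 went from 91.7, 95.0 and 92.8 to 97.0, 95.9 and 97.2 and ZNF345 from 92.2, 91.8 and 90.4 to 94.8, 96.6 and 94.7. Enterocyte genes had 0 lower and 1 higher promoter of 24, that of CEACAM5, the carcinoembryonic antigen, from 89.8, 90.6 and 93.8 to 98.6, 97.4 and 96.7 (6.15, SE 1.07, limma adjusted p = 0.0138).

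Counted by gene, 2971 of the 18214 protein-coding genes with a tested region had a higher region, 3817 a lower one and 1060 both. ATXN7L1, a paralogue of a SAGA complex subunit, had 12 of 56 regions higher and 2 lower, among them one from 57.5, 57.6 and 60.1 to 88.4, 86.9 and 88.9 (29.6, SE 2.50, limma adjusted p = 0.00307). MCC, a colorectal tumour suppressor gene, had 8 of 40 higher and 1 lower, and RUNX1, a transcription factor, 8 of 98 higher and 3 lower. COL4A2, a basement membrane collagen, had the most lower regions, 10 of 40 with 1 higher, among them one from 95.1, 96.2 and 96.9 to 85.4, 87.0 and 88.4 (-9.19, SE 1.01, adjusted p = 0.00397). ACTN4, which crosslinks actin, had 6 lower and 1 higher region of 28, IGF1R, a growth factor receptor, 6 and 2 of 41, and TNS3, of focal adhesions, 6 and 4 of 52. These genes were picked by their number of calls, which favours genes with many tested regions. Over all regions near genes 4.07% ranked higher and 4.69% lower. RUNX1 had 8.16% higher and 3.06% lower. TNS3, with 11.5% lower and 7.69% higher, lay above the general share in both directions. In windows of 1 Mb with at least 20 tested regions, the median shares were 3.88% higher and 3.12% lower. Over chromosome X from 65 to 66 Mb, 7 of 35 regions ranked higher, 4 of them nearest to MSN, which links actin to the membrane, and over chromosome 19 from 23 to 24 Mb, in a zinc finger gene cluster, it was 6 of 20. The highest lower share of these windows was that of chromosome X from 58 to 59 Mb, where 10 of 39 regions ranked lower (25.6%) and 0 higher, all 10 nearest to the zinc finger gene ZXDA. The nearest gene is only a label, and whether these regions lie in repeated sequence was not checked.

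The regions were also set beside those of the separate SW480 experiment with 1 mM sodium butyrate (NaBu). It had other untreated libraries and another date, and its regions were merged from its own peak lists, so their borders can differ. Compound, dose and experiment differ together and cannot be told apart, so the values stand side by side only. In that experiment 24998 of its 127305 tested regions ranked higher and 22035 lower, which is 19.6% and 17.3%. Of the 5758 regions higher after NaPr, 3155 (54.8%) were higher after NaBu and 73 (1.27%) lower. Of the 5051 lower regions 2473 (49.0%) were lower and 131 higher. Over all 129351 regions tested for NaPr, 19767 (15.3%) were higher after NaBu and 14263 lower. Of the 88832 regions tested in both experiments, 22.3% ranked higher after NaBu and 16.1% lower. Among these, 619 of 12381 CpG-rich start regions (5.00%) ranked higher after NaBu and 3978 (32.1%) lower. For the other start regions it was 18.5% and 20.8%, and for all promoter regions 7.29% and 29.5%. Among 12754 AP-1 regions away from starts 3963 (31.1%) ranked higher and 1331 (10.4%) lower. For regions in introns it was 25.99% and 12.8%, and for those over 100 kb from a start 28.3% and 10.8%. The AP-1 shares thus lay near those of such regions in general. Of the 10 largest NaPr rises, 9 were higher after NaBu, with the ABRAXAS1 region not called, and of the 10 largest falls 6 were lower. At CD63 the NaBu region set beside the one lost after NaPr had peaks in 3 untreated and 3 treated libraries. It was higher after NaBu, by 2.99 points. Whether it includes the stronger neighbouring peak was not checked, so it does not show how the lost region itself moved.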

How the data were processed

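ATAC-seq was done in 20 libraries, of which the 6 of the NaPr experiment in SW480 cells were analysed, the 6 of the NaBu experiment in SW480 served for values side by side, and the 8 of mouse CT26 cells were not used. The labels gave the groups and replicate numbers. Tools named in the submitters' processing notes were bcl2fastq 2.17.1, cutadapt 1.9.1, Bowtie2 2.3.1 and MACS2 2.1.0, with the builds hg38 and mm10; options were not given in the sources used here. The deposited peak lists, called in each library separately, give for each summit the fold enrichment over local background as a ratio and its −log10 p-value and −log10 q-value. The authors' lists end at 300000 numbered lines, so that the weakest −log10 p differed between libraries, from 3.37 to 6.53, and a missing peak means none above that list's own limit. The read-based differential test of the study was not run here, since reads were not used.

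Intervals were merged where they overlapped by at least 1 bp, ranks were computed over regions peaking in 2 or more libraries (ties averaged, no peak at 0), and limma 3.58.1 (R 4.3.3, lmFit and eBayes with trend, two-sided) was fitted to the 6 libraries; an adjusted p below 0.05 was called. Single values per library were compared by exact permutation (scipy 1.17.1). Regions were placed on GENCODE 44 for GRCh38, and consensus strings were sought on both strands in 200 bp around the highest summit. The scripts were tested on simulated data. The members, gene lists and named genes were chosen with earlier results of these data known, and the rank bands, the split of promoters, the shared word and the small nuclear RNA genes after the values were seen. Named were the 10 largest rises and falls among called regions and among called promoter regions, called promoter members of the lists, and the genes and windows with most calls. Whether replicate numbers pair the libraries was checked by the correlation of same-numbered deviations, which was 0.0114, 0.0113 and 0.0436, so they do not. Alternatives changed the filter, the ranked value, the trend, the scaling and the libraries, and 1 was added after the data were seen. Some genes and sequences are not reported here.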

Additional observations from a re-analysis of the deposited data

How the results depend on the processing

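Beside 5758 higher and 5051 lower regions, the counts were 2560 and 2408 without the filter on regions, 2916 and 1803 when ranked by fold enrichment, 8921 and 737 for tags over background (where the median region moved by 0.20 on the log2 scale) and 8115 and 13275 for tags over the median. Lower regions numbered 3273 without a variance trend and 2763 when ranked among each library's own peaks, chosen after seeing the data. Leaving out 1 library gave 0 to 2311 higher and 0 to 1307 lower regions, with fewer libraries in the fit. The regions gained numbered 3932 and the regions lost 2070; among the 50000 strongest intervals 1480 were gained, and with 1 library left out, which loosens the rule by construction, 5015 to 7147 were gained and 2935 to 4468 lost. Replicate numbers did not pair the libraries, and with a replicate block 381 regions were higher and 251 lower. Of 57 gene lists, 38 had more lower than higher calls near their genes, against 17 with the replicate block, 1 for tags over background and 0 to 23 with 1 library left out. At promoters it was 49, against 19 by fold, 6 with the block, 8 for tags over background and 0 to 22 with 1 library left out. Ranked by fold, single regions at RNVU1-14 and RNVU1-22 turned to -0.070 and -0.51. The cause of these differences was not tested. Depth and the ends of the lists limit what a missing peak can show.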

Other observations

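Short noncoding genes other than those of small nuclear RNAs were also covered. Of 146 regions at starts of small nucleolar RNA genes, 7 ranked higher (4.79%, near the 4.45% of all regions) and 3 lower. Of 588 regions at starts of microRNA genes 56 ranked lower (9.52%, near the 8.89% of promoters) and 9 higher; of the 275 without a protein-coding start within 1 kb, 14 ranked lower (5.09%) and 9 higher. Processed pseudogenes had 4.51% higher and 2.88% lower of 1043 start regions.

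Chromosome 22 had the highest share of lower regions (5.33%, with 2.63% higher) and chromosome 13 the lowest (2.29%). The highest share of higher regions was that of chromosome 3 (5.31%). NLGN1, a synaptic adhesion gene, had 4 of 9 regions higher, among them its promoter region, which went from 71.1, 74.1 and 72.1 to 84.2, 84.9 and 85.1 (12.3 points).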
